A study of Homo sapiens with 9 samples.

Results

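Genes of the Wnt signalling pathway were followed in A549, an established human line of lung adenocarcinoma cells. Members were the probe sets whose array gene symbol named a Wnt ligand, a Frizzled receptor, a Dickkopf or SFRP family protein, an LGR receptor, an AXIN scaffold or one of a short list of other core components. By this rule 34 probe sets for 33 genes were found among 16098 named probe sets (53617 probe sets in all). The 4 non-coding genes FZD4-DT, FZD10-AS1, LEF1-AS1 and ZNRF3-AS1, which carry the name of a neighbour on the opposite strand, were left out. Other members of the families, such as the DVL genes and the WNT genes beside WNT2, were not analysed here. The cells were kept for 5 days in DMEM with serum, and 3 arrays were made for each condition. In the attachment condition the plate let cells attach and the medium held water in place of the additive. Low-attachment plates with that same medium made the next condition, and low-attachment plates with 0.015% (w/v) of an additive labelled FP001 the last. All of the samples came from a single cell line, and the labels do not say whether replicates were separate cultures.

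Attachment replicate 1 stood apart from every other array. Its values ranked like those of no other array (highest correlation −0.00191, against 0.983 to 0.985 for the remaining 8), and it was left out, so attachment plates are represented by 2 arrays throughout. With all 9 arrays in the model, limma called 0 of the 11029 genes tested in any comparison (198, 330 and 11 had an unadjusted p under 0.05 for low attachment and FP001 against attachment and for FP001 against normal medium). The few arrays limit the precision of each value. Median intensity was 23.3 to 24.1 on the arrays used. Of the 5 epithelial markers with a name here, out of a list of 11, each read well above that on all 8 arrays, KRT8 between 119.6 and 164.0 and EPCAM between 134.3 and 252.0. Among markers of other cells, the fibroblast gene DCN (3.3 to 3.9) and the endothelial gene EMCN (4.5 to 6.1) stayed far below the array median. Of the other endothelial markers, KDR read 11.2 to 18.6. PECAM1 (14.8 to 26.6) and VWF (14.8 to 26.3) rose above the median at their highest. The 4 named endothelial markers of 6 summed to 50.6 to 57 on attachment plates and 56.9 to 61.1 on low attachment. With FP001 their sum was 61.8 to 77.2. The 3 named fibroblast markers of 8 (DCN, LUM and THY1) summed to 109.7 to 169.7 on attachment plates, 80.4 to 312.6 on low attachment and 133.9 to 493.0 with FP001, a spread set by LUM (24 to 436.5 over the 8 arrays), while THY1 fell in both comparisons (−0.45 and −0.51, adjusted p = 0.029 and 0.0115). The 2 named leukocyte markers of 7, CD68 and CD14, summed to 406.2 to 484.4, 495.5 to 655.8 and 552.1 to 778.3 in the same order. CD68 was higher with FP001 than on attachment plates (log2 fold change 0.74 ± 0.17 SE, limma adjusted p = 0.0146), whereas CD14 differed by −0.12 (adjusted p = 0.61). Of the epithelial markers, KRT19 rose in both comparisons (1.03 and 1.55, adjusted p = 0.0158 and 0.00135), KRT7 fell in normal medium (−0.54, 0.0422), and KRT18 rose (0.30, 0.00917) and EPCAM fell (−0.53, 0.042) with FP001. The part of these markers in the results below was not tested.

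Wnt proteins are secreted signals that bring together a Frizzled receptor and a co-receptor, LRP5 or LRP6, at the cell surface. In the canonical branch this stops a cytoplasmic complex built on AXIN and APC from marking β-catenin for destruction, and β-catenin then enters the nucleus and works with TCF/LEF factors and BCL9. Several components are known targets of the pathway and feed back on it, among them AXIN2, the ligases RNF43 and ZNRF3, and the inhibitor DKK1. In the lung, Wnt signals act in development and in the upkeep of alveolar type II cells, the lineage to which A549 is often compared.

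Of the 33 genes, 27 were bright enough to be tested, which means at or above the array median on at least 3 of the 8 arrays. Between low-attachment and attachment plates in normal medium, 7 of the 27 changed (limma, adjusted p under 0.05 over 10916 genes), 4 up and 3 down. The share called among all genes was 10.1%, with 4.31% up and 5.76% down. With FP001 on low attachment against attachment plates, 10 changed, 4 up and 6 down, where 19.5% of all genes were called (8.08% up and 11.4% down). These comparisons use the same 2 attachment arrays. In the latter the plate and the additive differ together, and their parts cannot be told apart. A change with FP001 against attachment plates thus holds both. The median log2 fold change of the 27 genes was 0.11 in the former and −0.05 in the latter, against 0.01 and 0.02 over all genes. Their median absolute log2 fold change was 0.31 and 0.28, against 0.16 and 0.20. In bulk RNA a change in the share of cells that express a gene cannot be told apart from a change in RNA per cell. Leaving out either attachment array gave counts of 4 and 6, and leaving out FP001 replicate 1 gave 6 in the latter comparison.

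**Figure D1:**
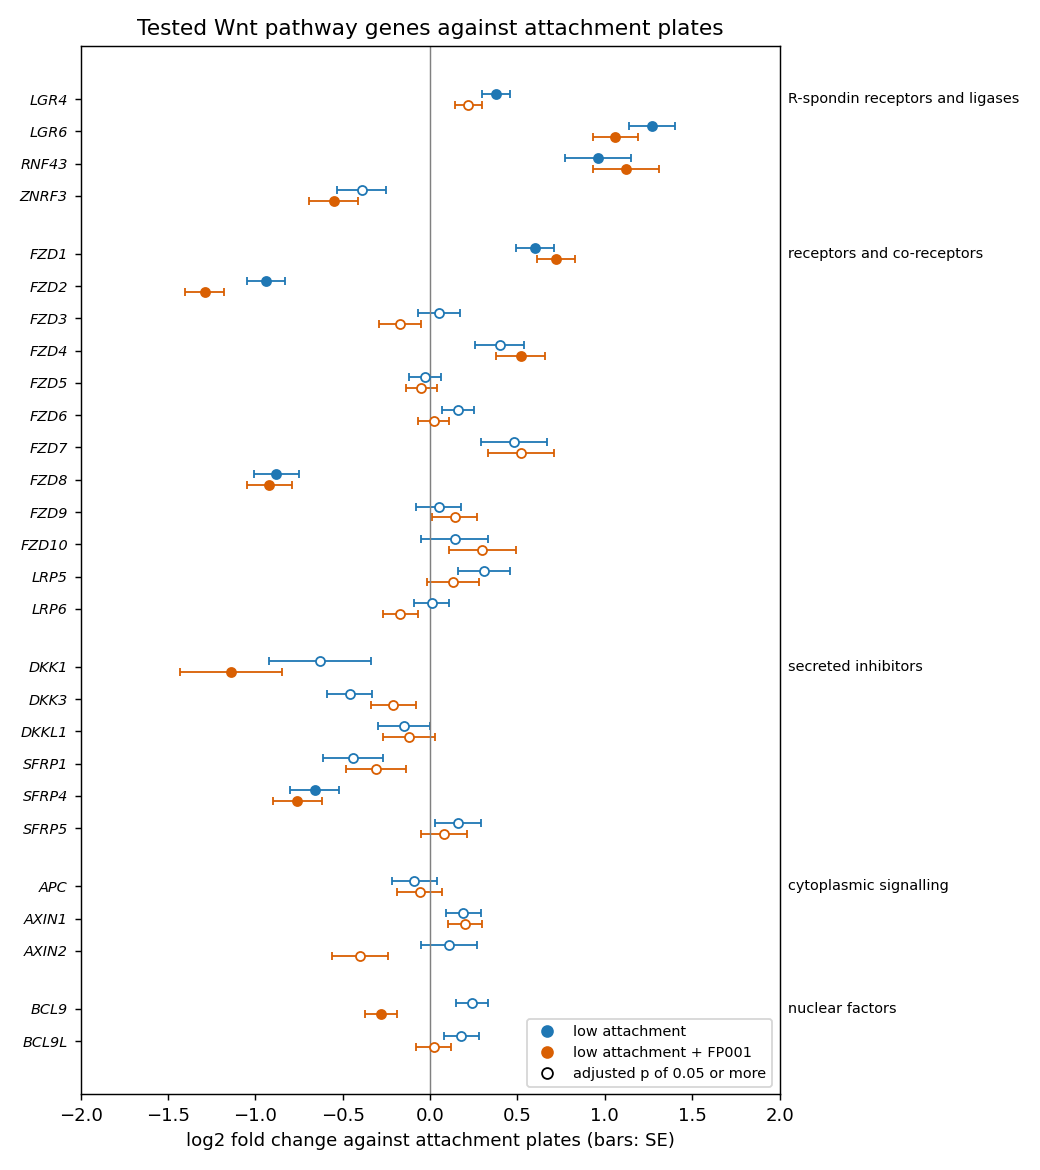
Log2 fold changes (x axis) of the 27 tested Wnt pathway genes against attachment plates, for low attachment in normal medium (blue) and low attachment with FP001 (orange); bars are SE from limma and filled points have an adjusted p under 0.05. LGR6, RNF43 and FZD1 lie to the right, and FZD2, FZD8 and SFRP4 to the left, in both comparisons.

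Of the 4 rises seen in normal medium, 3 were in the R-spondin arm of the pathway, in which 4 members were tested. Over all genes 4.31% were called higher. Without attachment replicate 3, LGR6 alone of these 3 stayed called. LGR4, LGR5 and LGR6 are receptors for R-spondins, secreted proteins that strengthen Wnt signalling. RNF43 and ZNRF3 are ligases in the membrane that send Frizzled receptors for degradation, and R-spondins bound to an LGR remove them. The R-spondin genes RSPO1, RSPO3 and RSPO4, which are not members, were tested and not called in any comparison.

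LGR6 read 54.4 and 42.3 on the attachment arrays, 117.7, 113.6 and 115.4 on low attachment, and 98.2, 113.5 and 90.2 with FP001. Every low-attachment array was above both attachment arrays. The rise was 2.41-fold in normal medium (log2 fold change 1.27 ± 0.13, adjusted p = 0.000547) and 2.09-fold with FP001 (1.06 ± 0.13, adjusted p = 0.000688). It was called with each of the 8 arrays left out in turn, with adjusted p-values of 0.000665 to 0.00717 across both comparisons.

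RNF43 read 212.6 and 126.4 on attachment plates, 377.2, 294.3 and 290.2 on low attachment, and 367.9, 343.1 and 358.4 with FP001. Both attachment arrays lay below all 6 low-attachment arrays, and on the log2 scale they differed from each other by more than arrays within either low-attachment group did. RNF43 rose 1.94-fold (0.96 ± 0.19, adjusted p = 0.011) and 2.17-fold (1.12 ± 0.19, adjusted p = 0.00323). Leaving out attachment replicate 3 ended the call in normal medium (0.58, adjusted p = 0.071).

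ZNRF3, the paralog of RNF43, lay on the other side. It read 215.7 and 243.2 on attachment plates, 142.8, 187.5 and 197.8 on low attachment, and 143.8, 160.7 and 167.1 with FP001. With FP001 it fell 1.46-fold (−0.55 ± 0.14, adjusted p = 0.0225), and in normal medium the difference was −0.39 ± 0.14 (adjusted p = 0.102). The call with FP001 was lost without attachment replicate 2 or 3 (adjusted p = 0.0743 and 0.134) and without FP001 replicate 1 or 2 (0.0623 and 0.0511).

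LGR4 read 1048.2 and 1135.6 on attachment plates, 1468.4, 1409.5 and 1388.9 on low attachment, and 1177.6, 1260.2 and 1383.9 with FP001. The groups did not overlap, and the rise in normal medium was small, 1.30-fold (0.38 ± 0.08, adjusted p = 0.0185). With FP001 the difference of 0.22 ± 0.08 missed the threshold (adjusted p = 0.09). Without attachment replicate 2 or 3 the call in normal medium was lost (adjusted p = 0.143 and 0.056). LGR5, known as a stem cell marker of the gut, read 9.9 to 13.1, below the array median on all 8 arrays, and was not tested.

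Promoter sequence was taken from RefSeq (build GRCh38.p14), which matched 19 of the 33 genes with 23 start sites. Stretches of some members are printed below. AXIN2 and FZD2 were not among the 19. Each stretch holds the 250 bases before a start site, 5′ to 3′ on the gene's strand. The letters searched, on both strands, were the TCF/LEF core (CTTTGAA or CTTTGAT or CTTTGTA or CTTTGTT), the AP-1 site TGANTCA and the GC box GGGCGG, and capitals mark a match. No base of the printed stretches belonged to matches of 2 motifs. RNF43 is shown with both of its starts, because the downstream start held the only AP-1 match among the 23.
RNF43, upstream start (chr17:58417535-58417784, minus strand): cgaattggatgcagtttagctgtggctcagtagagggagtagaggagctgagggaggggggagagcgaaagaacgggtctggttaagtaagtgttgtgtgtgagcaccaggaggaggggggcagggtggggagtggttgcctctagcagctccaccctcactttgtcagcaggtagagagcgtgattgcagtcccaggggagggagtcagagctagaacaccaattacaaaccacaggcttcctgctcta
RNF43, downstream start (chr17:58402722-58402971, minus strand): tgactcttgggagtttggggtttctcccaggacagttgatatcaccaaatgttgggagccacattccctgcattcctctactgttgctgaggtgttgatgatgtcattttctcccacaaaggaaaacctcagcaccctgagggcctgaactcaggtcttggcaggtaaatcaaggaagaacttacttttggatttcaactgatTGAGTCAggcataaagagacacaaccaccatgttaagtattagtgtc
FZD8 (chr10:35642297-35642546, minus strand): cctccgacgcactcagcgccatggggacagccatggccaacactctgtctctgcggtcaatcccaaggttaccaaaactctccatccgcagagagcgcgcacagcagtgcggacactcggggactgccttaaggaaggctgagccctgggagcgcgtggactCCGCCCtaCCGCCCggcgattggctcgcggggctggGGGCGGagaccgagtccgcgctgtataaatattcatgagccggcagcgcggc
DKK1 (chr10:52314031-52314280, plus strand): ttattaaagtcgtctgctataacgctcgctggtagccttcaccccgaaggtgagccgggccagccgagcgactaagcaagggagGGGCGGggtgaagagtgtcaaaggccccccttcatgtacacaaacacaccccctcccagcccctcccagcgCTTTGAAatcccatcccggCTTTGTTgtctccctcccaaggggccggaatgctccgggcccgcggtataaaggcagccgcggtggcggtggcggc
BCL9 (chr1:147541251-147541500, plus strand): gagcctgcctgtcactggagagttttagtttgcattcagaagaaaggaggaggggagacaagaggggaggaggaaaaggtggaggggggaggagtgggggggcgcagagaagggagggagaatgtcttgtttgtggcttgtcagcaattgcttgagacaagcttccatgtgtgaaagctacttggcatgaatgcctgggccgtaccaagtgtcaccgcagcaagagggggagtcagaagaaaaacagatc
FZD8 is shown for its 3 GC boxes, DKK1 as the only gene of the 23 starts with the TCF/LEF core, which it held 2 times, and BCL9 as the gene called between media, with none of these letters. The starts of LGR6, not printed, held none of them either. Those of FZD1 and SFRP4, also not printed, held 1 GC box each and no other match. A TCF/LEF core stood in 4.35% of the starts of Wnt genes and in 12% of 35116 promoters of the same length. The AP-1 site stood in 4.35% and 6.57%, and the GC box in 60.9% and 42.6%. A match is a description of letters and not a measured binding site.

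Frizzled receptors, all 10 of them bright enough to be tested, moved in both directions. FZD1 rose on both kinds of low-attachment sample, FZD2 and FZD8 fell on both, FZD4 rose with FP001, and the co-receptors LRP5 and LRP6 did not pass the test.

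FZD2 read 150.6 and 150.5 on attachment plates, 82.2, 73.3 and 80.0 on low attachment, and 54.9, 62.0 and 68.4 with FP001. The 3 groups did not overlap, with attachment highest and FP001 lowest. FZD2 fell 1.92-fold in normal medium (−0.94 ± 0.11, adjusted p = 0.00105) and 2.45-fold with FP001 (−1.29 ± 0.11, adjusted p = 0.000144). It stayed called with each array left out. Between the media the difference was −0.35 ± 0.10 (adjusted p = 0.23), so that step was not called.

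FZD8 read 229.4 and 189.5 on attachment plates, 125.9, 106.8 and 108.9 on low attachment, and 122.7, 97.6 and 112.7 with FP001. The low-attachment groups overlapped each other and lay below attachment. The falls were 1.84-fold (−0.88 ± 0.13, adjusted p = 0.00299) and 1.89-fold (−0.92 ± 0.13, adjusted p = 0.00134), and both remained called with each array left out. Its promoter, printed above, carries GC boxes and no TCF/LEF core.

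FZD1 read 33.9 and 37.3 on attachment plates, 56.7, 53.4 and 52.2 on low attachment, and 56.9, 56.1 and 62.6 with FP001. Both low-attachment groups lay above attachment, though these intensities are not far above the array median. FZD1 rose 1.52-fold (0.60 ± 0.11, adjusted p = 0.00641) and 1.64-fold (0.72 ± 0.11, adjusted p = 0.00162). In normal medium the call was lost without attachment replicate 2 (0.53, adjusted p = 0.0647).

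FZD4, which also serves as the receptor for norrin in blood vessels, read 58.4 and 51.7 on attachment plates, 82.9, 68.8 and 66.6 on low attachment, and 90.8, 69.4 and 77.6 with FP001. It rose 1.43-fold with FP001 (0.52 ± 0.14, adjusted p = 0.027), a call lost without attachment replicate 2 or 3 or FP001 replicate 1 (adjusted p = 0.0814, 0.149 and 0.0736). In normal medium the difference was 0.40 ± 0.14 (adjusted p = 0.0971). FZD7 showed differences of like size, 0.48 ± 0.19 and 0.52 ± 0.19, with a wider spread between arrays (58.1 to 99.3 on low attachment against 55.6 and 56.6), and missed the threshold (adjusted p = 0.147 and 0.0854). It passed without low-attachment replicate 1 (adjusted p = 0.0181 and 0.0197).

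The remaining receptors gave small differences. FZD3, FZD5, FZD6, FZD9 and FZD10 had log2 fold changes between −0.17 and 0.30 against attachment plates, and none was called. The co-receptor LRP6 read 512.2 to 693.3 over the 8 arrays, with differences of 0.01 ± 0.10 in normal medium (95% interval −0.20 to 0.22) and −0.17 ± 0.10 with FP001 (−0.39 to 0.04). LRP5 read 321.8 to 488.0, with 0.31 ± 0.15 (−0.03 to 0.64) and 0.13 ± 0.15 (−0.20 to 0.47).

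**Figure D2:**
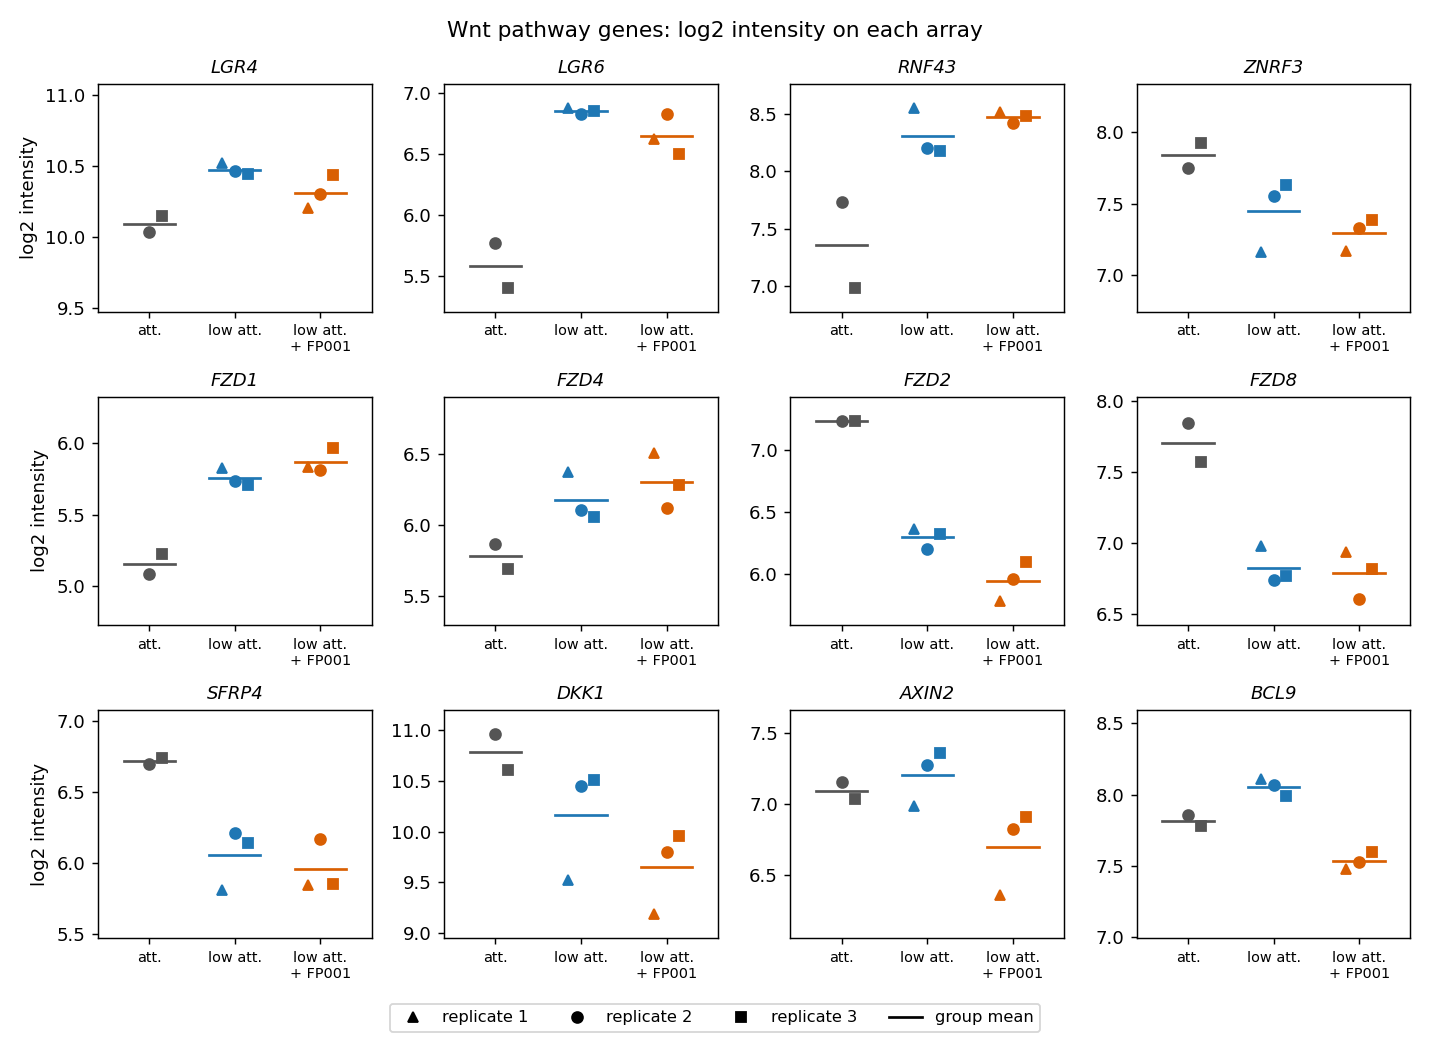
Log2 intensity (y axis, a range of its own in each panel) of 12 Wnt pathway genes on each array, by condition (x axis: attachment, low attachment, low attachment with FP001); symbols give the replicate number and lines the group means. LGR6, RNF43 and FZD1 sit higher and FZD2, FZD8 and SFRP4 lower on all 6 low-attachment arrays than on the 2 attachment arrays.

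SFRP proteins resemble the ligand-binding part of Frizzled and bind Wnts outside the cell, whereas DKK1 blocks LRP5 and LRP6. Of the 6 tested SFRP, Dickkopf and Dickkopf-like genes, SFRP4 fell in normal medium, and SFRP4 and DKK1 fell with FP001, where 5.76% and 11.4% of all genes were called lower.

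SFRP4 read 103.7 and 106.7 on attachment plates, 56.1, 74.1 and 70.7 on low attachment, and 57.5, 72.1 and 57.8 with FP001. All 6 low-attachment arrays were below both attachment arrays. The fall was 1.58-fold in normal medium (−0.66 ± 0.14, adjusted p = 0.0166) and 1.69-fold with FP001 (−0.76 ± 0.14, adjusted p = 0.0055). The former was lost without attachment replicate 2 or 3 (adjusted p = 0.092 and 0.0978), and the latter was not lost with any array left out.

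DKK1 read 1993.6 and 1562.2 on attachment plates, 735.0, 1401.5 and 1453.2 on low attachment, and 581.6, 892.3 and 995.4 with FP001. Both low-attachment groups lay wholly below attachment, and replicate 1 was the lowest array in each of them. DKK1 fell 2.20-fold with FP001 (−1.14 ± 0.29, adjusted p = 0.022), while in normal medium the difference was −0.63 ± 0.29 (adjusted p = 0.199). The call with FP001 was lost without attachment replicate 2 or 3 (adjusted p = 0.161 and 0.0595) or FP001 replicate 1 (0.0583). Without low-attachment replicate 1 the difference in normal medium was −0.31. The fibroblast-list gene LUM also set those arrays apart, reading 246.6 on low-attachment replicate 1 (24 and 41.5 on its other arrays) and 436.5 on FP001 replicate 1 (79 and 103.4), and its part in the DKK1 values was not tested.

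The other tested genes of these families did not pass. SFRP1, which read 144.9 and 172.3 on attachment plates and 102.4 to 150.3 on the low-attachment arrays, had log2 fold changes of −0.44 ± 0.17 (adjusted p = 0.14) and −0.31 ± 0.17 (0.232). DKK3, a divergent member of the Dickkopf family, had −0.46 ± 0.13 (adjusted p = 0.0565) and −0.21 ± 0.13 (0.282). SFRP5 and DKKL1, a Dickkopf-like protein known from sperm, lay between −0.15 and 0.16. DKK2 (13.8 to 19.3), DKK4 (10.6 to 16.4) and SFRP2 (14.9 to 25.4) were too dim to be tested. So was WNT2, the only ligand here, at 15.0 to 21.4 and below the median on all 8 arrays.

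In the cytoplasm, no member of the destruction complex was called against attachment plates. APC read 56.2 to 70.7 over the 8 arrays and AXIN1, the constitutive scaffold, 95.5 to 118.7. AXIN1 lay higher by 0.19 ± 0.10 and 0.20 ± 0.10 (adjusted p = 0.232 and 0.174). AXIN2, the scaffold whose gene is a widely used readout of canonical Wnt signalling, read 142.2 and 131.0 on attachment plates, 126.6, 154.5 and 163.8 on low attachment, and 82.2, 113.3 and 119.9 with FP001. The attachment and low-attachment groups overlapped, and every FP001 array lay below every other array. Its log2 fold changes against attachment were 0.11 ± 0.16 (adjusted p = 0.711) and −0.40 ± 0.16 (0.112).

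BCL9, the adaptor that links β-catenin to the transcription machinery, read 231.3 and 219.4 on attachment plates, 275.6, 267.7 and 254.8 on low attachment, and 178.2, 184.5 and 193.2 with FP001. The 3 groups did not overlap, and attachment lay between the others. With FP001 it was 1.22-fold below attachment (−0.28 ± 0.09, adjusted p = 0.0427), a call lost with quantile normalization (−0.20, adjusted p = 0.108), with no filter on low values (0.0501) and without any single array but low-attachment replicate 1. In normal medium it was higher by 0.24 ± 0.09 (adjusted p = 0.106).

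Its paralog BCL9L had 2 probe sets, which disagreed. The brighter read 267.7 and 283.8 on attachment plates, 298.6 to 335.3 on low attachment and 264.6 to 305.6 with FP001, and its difference with FP001 was 0.02 ± 0.10 (adjusted p = 0.882). The dimmer read 64.8 and 73.9, then 83.0 to 95.1, then 93.1 to 114.8. Fitted with every named probe set, the dimmer was higher by 0.58 ± 0.12 with FP001 (adjusted p = 0.00806). The brighter was taken to stand for the gene. The transcription factor LEF1 read 3.4 to 4.5, far below the array median, and was not tested.

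The comparison of media on low-attachment plates asked what FP001 changed there. Of the 27 genes 1 was called, where 0.11% of all genes were (0.0733% lower and 0.0366% higher). BCL9 was 1.44-fold lower with FP001 (−0.52 ± 0.08, adjusted p = 0.0455), and this call was lost with each of the 8 arrays left out (adjusted p = 0.0602 to 0.223) and with quantile normalization (0.0513). Same-numbered arrays of the low-attachment groups varied together, with deviations correlating at 0.483, 0.309 and 0.231 (−0.353 to 0.133 for differently numbered ones). This pairing was inferred from the same data. With the replicate number as a block 1.3% of all genes were called (0.843% lower and 0.458% higher). Of the 27 genes 3 were called, all lower. These were BCL9 (adjusted p = 0.00941), AXIN2 (−0.51 ± 0.09, adjusted p = 0.0176) and DKK1 (−0.51 ± 0.09, adjusted p = 0.0252). Without the block the adjusted p of AXIN2 was 0.23 and that of DKK1 0.483. The block was fitted to all 8 arrays, the 2 attachment arrays included, although pairing by number could not be settled for those.

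The differences by replicate number show what the block removes. For DKK1 the FP001 array lay below its same-numbered partner by 0.34, 0.65 and 0.55 on the log2 scale for numbers 1, 2 and 3, although the groups as a whole overlapped. AXIN2 was lower by 0.62, 0.45 and 0.45, and BCL9 by 0.63, 0.54 and 0.40. In all, 11 of the 27 genes were lower with FP001 at every number, where 20.7% of all genes were, and 5 were higher at every number, where 20.8% were. These counts take the sign alone with no minimum size, and include differences as small as that of LGR6 at number 2 (113.5 against 113.6) and of LGR4 at number 3 (−0.01). The genes lower at every number included the receptors LGR4, LGR6, LRP5, LRP6, FZD2, FZD3 and FZD6 beside BCL9L, AXIN2, BCL9 and DKK1. The 5 higher ones were FZD1, FZD4, FZD9, SFRP1 and DKK3. BCL9L is counted by its brighter probe set. Its dimmer probe set was higher with FP001 at numbers 1 and 2 (114.8 against 95.1 and 104.2 against 83.0). At number 3 the dimmer one was lower (93.1 against 94.4). RNF43, which rose against attachment on both kinds of low-attachment sample, differed by 0.16 ± 0.17 between the media (95% interval −0.21 to 0.54). ZNRF3 differed by −0.15 ± 0.12 between the media, FZD4 by 0.12 ± 0.12 and SFRP4 by −0.10 ± 0.13 (limma adjusted p = 0.68, 0.744 and 0.806).

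**Figure D3:**
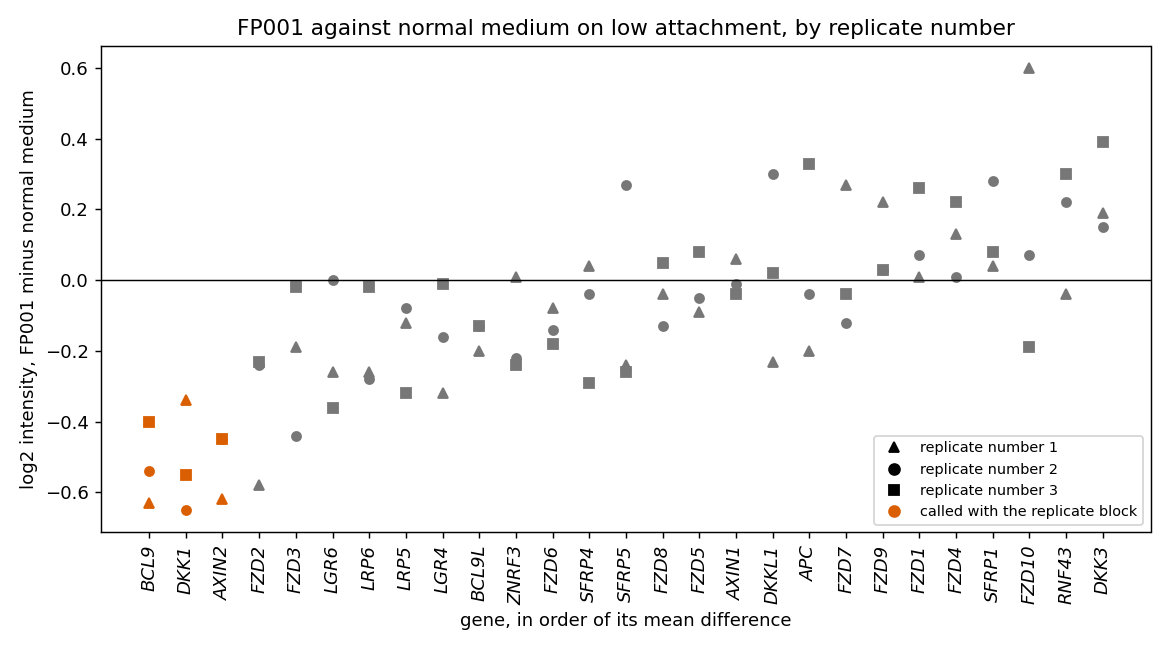
Difference in log2 intensity between FP001 and normal medium on low-attachment plates (y axis) for each replicate number (symbols) and each of the 27 tested Wnt pathway genes (x axis, in order of the mean difference). BCL9, DKK1 and AXIN2, called with the replicate block and shown in orange, lie at the left with all 3 differences below 0.

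**Figure D4:**
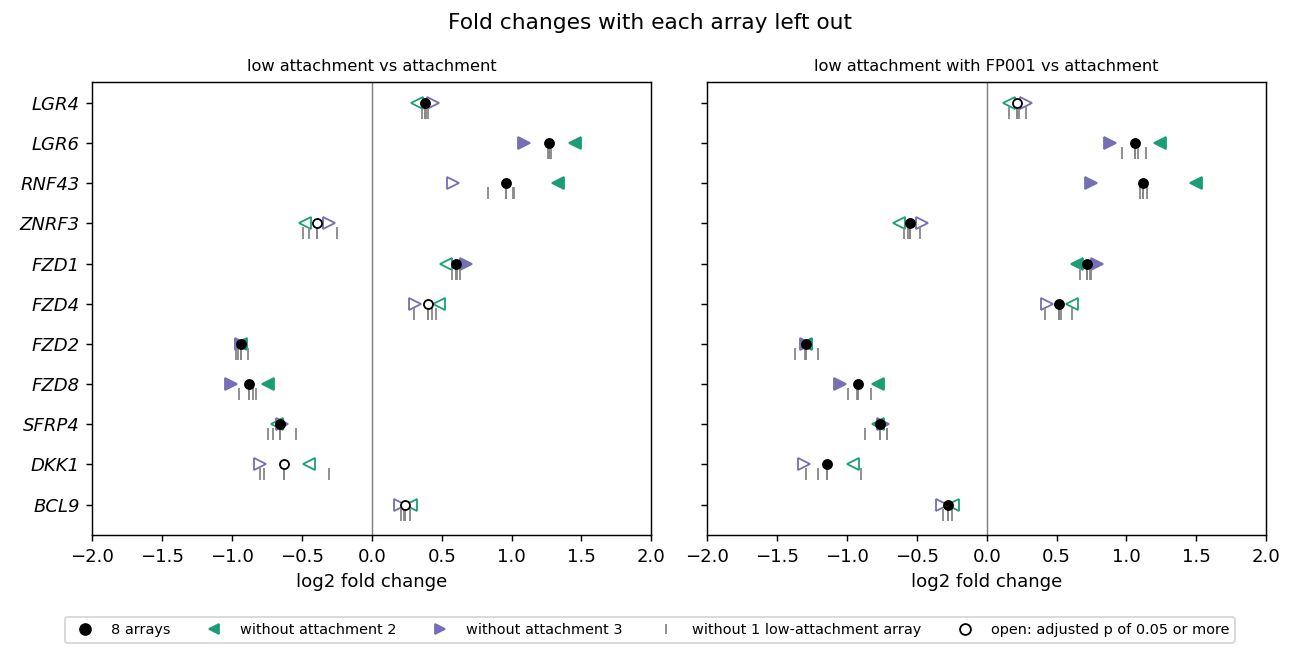
Log2 fold changes (x axis) of 11 Wnt pathway genes against attachment plates with 8 arrays (circles), without attachment replicate 2 or 3 (triangles) and without each low-attachment array (ticks); open symbols have an adjusted p of 0.05 or more, and ticks carry no call. LGR6, FZD2 and FZD8 stay filled in both panels, and RNF43 moves most with the choice of attachment array.

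Other genes of the pathway came from a list of 75. Their shares of calls lay near those of all genes, and the counts moved with the array left out. Of the 45 tested, 1 rose and 3 fell in normal medium, which is 8.89% against 10.1% of all genes, with a median log2 fold change of −0.02 against 0.01. PRICKLE2, a planar cell polarity protein of the β-catenin-independent branch, fell 1.78-fold (−0.84 ± 0.17, adjusted p = 0.0147). NLK, a kinase that acts on TCF/LEF factors, and RYK, a Wnt co-receptor, fell 1.33-fold and 1.30-fold (limma adjusted p = 0.0249 and 0.0244). CXXC5, a binding partner of Dishevelled, rose 1.33-fold. Without attachment replicate 2 none of the list was called, without attachment replicate 3 the count was 1, and without FP001 replicate 1 it was 8. Without low-attachment replicate 2 or 3 it was 2, with NLK among the calls lost (limma adjusted p = 0.0729 and 0.0691). RYK was lost without any single low-attachment array in normal medium (0.0516 to 0.0666).

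With FP001 against attachment, 2 of the 45 rose and 5 fell, which is 15.6% against 19.5% of all genes (median −0.02 against 0.02). PRICKLE2 fell 2.07-fold (−1.05 ± 0.17, adjusted p = 0.00308), its family member PRICKLE1 1.41-fold, and NLK 1.5-fold. CXXC5 rose 1.47-fold (adjusted p = 0.00168) and NOTUM, a secreted enzyme that inactivates Wnt proteins, 1.44-fold (adjusted p = 0.0451). The NOTUM call was lost with log2(intensity + 16) (adjusted p = 0.0507), with no filter on low values (0.0562) and without FP001 replicate 1 or 2, either attachment array, or low-attachment replicate 2 or 3 (0.0535 to 0.235). FBXW11, a ubiquitin ligase subunit that recognises β-catenin, and RYK also fell, by 0.42 and 0.41 on the log2 scale. Without attachment replicate 2 the count was 3, with FBXW11, RYK and PRICKLE1 among the calls lost (adjusted p = 0.083, 0.0922 and 0.205). PRICKLE1 was also lost without FP001 replicate 2 or 3 or low-attachment replicate 3 (0.0632 to 0.103), and without attachment replicate 3 (log2 fold change −0.53). Quantile normalization (0.0747) and no filter on low values (0.0569) ended its call too. Between the media limma called 0 of the 45 genes, with and without the replicate block, and 2 had an unadjusted p under 0.05.

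Genes known as Wnt targets in other tissues, from a list of 40 that held no member and shared NOTUM, NKD1 and APCDD1 with the list above, were called in both directions. Of the 29 tested, 3 rose and 3 fell in normal medium, which is 20.7% against 10.1% of all genes. With FP001 4 rose and 4 fell, 27.6% against 19.5%. Counting those not called, 19 and 21 of the 29 lay above 0, where 5624 and 5730 of all 10916 genes did. The medians of the 29 were 0.07 and 0.18, against 0.01 and 0.02 over all genes. SOX9, a progenitor transcription factor, rose 1.55-fold and 1.35-fold, and S100A4, a calcium-binding protein linked to motility, 1.63-fold and 1.76-fold. EPHB3, a receptor that sorts cells in gut crypts, rose 1.38-fold and 1.32-fold. The tight junction gene CLDN1 fell 1.83-fold and 1.74-fold, and the growth factor gene BMP4 1.52-fold and 1.70-fold. JUN, an AP-1 subunit with many other inputs, fell 3.81-fold and 2.09-fold and was the target gene called between media, higher by 0.87 ± 0.11 with FP001 (adjusted p = 0.0212). Without low-attachment replicate 2 or 3, or without any single FP001 array, that call between media was lost.

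JUN and CLDN1 were called against attachment in both comparisons with each array left out, and SOX9 in normal medium. With FP001 the call of SOX9 was lost without attachment replicate 2 (adjusted p = 0.091), that of BMP4 without the same array (0.0833) and that of S100A4 without attachment replicate 3 (0.0644). In normal medium BMP4 was lost without attachment replicate 2 or low-attachment replicate 2 or 3 (0.066 to 0.25), and S100A4 without attachment replicate 3 or low-attachment replicate 1 or 3 (0.0513 to 0.157). EPHB3 was lost without attachment replicate 3 or any low-attachment array in normal medium (0.0521 to 0.167), and with FP001 without either attachment array or any FP001 array (0.0509 to 0.176).

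Among targets most often used as readouts, MYC had differences of −0.22 and −0.32 (adjusted p = 0.533 and 0.293) and CCND1 of 0.08 and 0.29 (0.674 and 0.09). SP5 read 36.0 to 58.5 over the 8 arrays, with differences of 0.11 and 0.31, and was not called. Leaving out attachment replicate 2 reduced the count of called targets with FP001 to 3, and leaving out attachment replicate 3, FP001 replicate 1 or FP001 replicate 2 reduced it to 5.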

How the data were processed

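Total RNA was read on 9 Affymetrix arrays. The authors deposited linear intensities, and the submitters' processing notes name MAS5 (version and settings: not given in the sources used here). Per the labels' protocols 100 ng of RNA was labelled by a 3' method, so the stretch of a transcript that was read is not certain. Gene names came from the platform's annotation, and all 16098 named probe sets (14884 genes) matched RefSeq by gene identifier.

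Values were log2 intensities with no further scaling. Probe sets at or above the array median on at least 3 of 8 arrays were kept (27942, of which 11711 named), and the brightest stood for a gene (10916 genes). Low-attachment groups, with 3 arrays each, can pass this filter alone, while attachment, with 2, cannot. The 3 group means were fitted with limma 3.58.1 in R 4.3.3 (lmFit, eBayes with a trend, 5 residual and 5.6 prior degrees of freedom), two-sided, with Benjamini-Hochberg adjustment. The script was tested on simulated data.

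The members and lists were chosen with earlier results of these data known. Named were all called members, the brightest and most changed of each role, and called genes of the other lists, up to 4 per comparison where room allowed. The remaining members, MYC, CCND1, SP5 and the fifth and later genes of a list were named after their values were seen. Mean levels are means of log2 values, and each p-value rests on the spread between samples alone, technical or not. Same-numbered arrays without and with FP001 had deviations correlating at 0.483, 0.309 and 0.231, so the numbers were taken to pair them. Differently numbered arrays of these groups gave −0.353 to 0.133. Attachment replicate 2 correlated at −0.205 and −0.256 with the low-attachment arrays of its number, and at 0.269 and 0.207 with those numbered 1. Attachment replicate 3 correlated at 0.138 and 0.00762 with those of its number. With 2 attachment arrays the deviations of one mirror those of the other, so whether the numbers pair them could not be settled.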

Additional observations from a re-analysis of the deposited data

How the results depend on the processing

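Alternatives were all 9 arrays, quantile normalization, log2(intensity + 16), no filter, a filter on all arrays, every named probe set, the replicate block and each of the 8 arrays left out. With all 9 arrays, 0 Wnt genes, 0 other pathway genes and 0 targets were called in each comparison, and 5 called Wnt genes changed sign against attachment: FZD8 (1.16 in normal medium and 1.12 with FP001), FZD2 (0.51 and 0.16), SFRP4 (0.48 and 0.38), and, with FP001, DKK1 (1.66) and BCL9 (0.78). The array added there is the one that stood apart. Under the other alternatives no called Wnt gene changed sign.

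With 1 array left out, the Wnt count was 4 to 8 in normal medium against attachment, 6 to 11 with FP001 and 0 to 0 between media. For other pathway genes it was 0 to 8, 3 to 7 and 0 to 0, and for targets 4 to 7, 3 to 9 and 0 to 1. Between media, quantile normalization left 0 Wnt genes called and the replicate block 3. A block on the 6 low-attachment arrays alone, chosen after seeing the data, called 3 Wnt genes (DKK1 at adjusted p = 0.00108) and 2 targets, where it called 466 of all 10916 genes. Against attachment, where pairing by number could not be settled, the block called 8 and 11 Wnt genes, the added one being FZD7 (0.64 and 0.68, adjusted p = 0.00583 and 0.00291). It called 6 and 7 other pathway genes and 7 and 10 targets, and 1375 and 2367 of all genes. Over all genes the block moved the count between media from 12 to 142, and quantile normalization moved the share of rises among calls from 42.8% to 54.4% in normal medium and from 41.5% to 56.2% with FP001; the cause was not tested. The filter on all arrays removed FZD10 from the test. Intensities near the array median, as for FZD1, FZD9 and FZD10, limit what could be detected.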
